A study of Mus musculus with 8 samples.

Results

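The antimicrobial and secretory defence proteins examined here were 10 genes of the mouse endometrium: the iron-binding proteins Ltf and Lcn2, the immunoglobulin transporter Pigr, the whey acidic protein family members Slpi and Wfdc2, the lysozyme Lyz2, the small cationic proteins Camp, Defb1 and Ngp, and the lectin Reg3g. They were chosen by symbol as secreted defence proteins of epithelia and granulocytes, and make up 10 of the 52325 genes in the count table. RNA was sequenced from laser-captured endometrium of 4 Thra1PV/+ mice and 4 wild-type (WT) mice. In Thra1PV/+ mice 1 copy of Thra, the gene of thyroid hormone receptor alpha, has the PV frameshift. It alters the C-terminus and turns the receptor into a dominant-negative inhibitor in every cell that uses the gene, so other organs of these mice carried it too. All 8 mice were synchronised and matched at metestrus and received no treatment that the labels give. The labels give neither age nor strain and do not say whether a library came from 1 mouse, so p-values measure the spread between these libraries.

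Uterine epithelium lies between a lumen open to the vagina and a tissue that must tolerate an embryo. Lactotransferrin and lipocalin 2 deprive bacteria of iron, lysozyme cuts the bacterial cell wall, defensins and cathelicidin disrupt membranes, and the whey acidic protein family inhibits the proteases of neutrophils and microbes. The polymeric immunoglobulin receptor carries IgA and IgM across the epithelium. Several of these genes have a second source: Ltf, Lcn2, Camp and Ngp are made by maturing neutrophils in the bone marrow for their secondary granules, and Lyz2 is a macrophage and granulocyte gene. In the mouse uterus Ltf is a classical estrogen-induced product of the epithelium.

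The 4 genes that neutrophil granules share with the list are shown first by sequence, because their levels lay at opposite ends of the range in this tissue. The lines give the 250 bases before the RefSeq transcription start on GRCm38, 5′ to 3′ on the strand of the gene. The gene spans given below are from GENCODE, which places these starts differently. The windows of Lcn2 and of Slpi (not printed) lie wholly inside those spans, and those of Ltf, Ngp and Camp partly. Capitals mark matches, on either strand, to TTGCNNAA, a core of the sites bound by C/EBP factors, which drive granulocyte genes and the response of epithelia to inflammation.
Lcn2, chr2:32387740-32387989, minus strand: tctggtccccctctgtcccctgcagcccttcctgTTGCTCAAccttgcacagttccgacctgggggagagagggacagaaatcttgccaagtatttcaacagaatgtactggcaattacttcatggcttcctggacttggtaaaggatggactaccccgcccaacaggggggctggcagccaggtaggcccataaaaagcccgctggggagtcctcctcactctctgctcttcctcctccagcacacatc
Ltf, chr9:111019042-111019291, plus strand: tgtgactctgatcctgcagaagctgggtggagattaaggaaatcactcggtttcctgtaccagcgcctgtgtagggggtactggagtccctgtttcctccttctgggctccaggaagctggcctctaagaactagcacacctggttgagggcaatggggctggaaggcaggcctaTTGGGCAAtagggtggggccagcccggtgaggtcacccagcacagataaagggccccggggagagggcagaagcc
Ngp, chr9:110419558-110419807, plus strand: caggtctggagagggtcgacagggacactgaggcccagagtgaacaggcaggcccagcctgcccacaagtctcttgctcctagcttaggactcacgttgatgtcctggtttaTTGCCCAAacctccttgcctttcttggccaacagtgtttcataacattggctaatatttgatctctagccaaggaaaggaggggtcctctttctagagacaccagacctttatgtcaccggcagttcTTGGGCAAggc
Camp, chr9:109849457-109849706, minus strand: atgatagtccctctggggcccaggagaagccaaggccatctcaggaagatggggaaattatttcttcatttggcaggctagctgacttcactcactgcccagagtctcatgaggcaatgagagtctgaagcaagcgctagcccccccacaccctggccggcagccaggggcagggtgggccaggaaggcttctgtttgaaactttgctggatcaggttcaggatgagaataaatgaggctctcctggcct
The match began at -216 in Lcn2 and at -75 in Ltf, counted from the RefSeq start site. Ngp held 2 matches and Camp none, and Slpi was the only other member with a match. In all, 4 of the 9 member promoters given by RefSeq held these letters, against 9.56% of 32851 mouse promoters of the same length. No member promoter matched the kB pattern searched, which was in 1.41% of promoters. That pattern covered only some forms of the kB site, and other forms were not searched. No member promoter matched an AP-1 site (TGANTCA, 6.75%), a STAT site (TTCNNNGAA, 7.02%) or a full estrogen response element (0.0639%). A single arm of that element, GGTCA, which every full element contains, was present in Ltf and Pigr and in 35.2% of promoters. A match describes letters in this window and not a bound site.

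Library totals ranged from 48791602 to 59818887 estimated counts. Counts were scaled to library size by the TMM method and are given as CPM. Levels of different genes were compared in the deposited TPM, which correct for transcript length, and mean CPM served to choose the genes named from each list. No difference between genotypes was detected in the gene-level count of Thra (log2 fold change 0.04, SE 0.39), so that count checks no label. Of the markers of simple epithelium, Krt8, Krt18, Epcam and Cdh1 were each above 223 CPM in all 8 libraries. Before the results, 3 libraries stood apart. The 10 stroma markers summed to 4448 CPM in Thra1PV/+ replicate 1, 5110.5 in WT replicate 1 and 4968 in WT replicate 2, and to 473 to 1915 in the other 5. The same 3 libraries had the lowest sums of 11 simple epithelium markers (3131 to 3746 CPM, against 6261 to 11669). WT replicate 1 also held 12639.7 CPM of 6 smooth muscle markers, against 125 to 1094 elsewhere. Between genotypes all 6 smooth muscle markers were lower in Thra1PV/+ at an unadjusted p under 0.05 (4.72% of all tested genes), with a median log2 fold change of -4.31. The genotypes did not overlap for 2 of them (6.04% of all tested genes), but edgeR called 0. DESeq2 gave an adjusted p for Des alone of these 6 (0.11) and did not call it. All 10 stroma markers had log2 fold changes below 0, 1 of them (Dcn, named after its value was seen) at an unadjusted p under 0.05. Of these edgeR called 0 and DESeq2 called 1, Dcn. The part of these tissues in the members' levels was not tested. The 12 markers of stratified squamous epithelium separated the genotypes, at 2933 to 4613 CPM in Thra1PV/+ and 1.58 to 67.1 in WT. All 11 tested were higher in Thra1PV/+ with no overlap (3.55% of all tested genes), and DESeq2 called all 11. Of the 11, edgeR called 10, with Ivl, Trp63, Lgals7, Dsc3, Pkp1 and Krt5 lowest in adjusted p. Krt5 had a log2 fold change of 7.43 (SE 1.10, adjusted p = 0.0268, edgeR quasi-likelihood test). In such bulk samples, fewer cells of a type and less RNA per cell cannot be told apart.

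Whether the dominant-negative receptor went with a change of these defence genes was asked in 1 fit over all genes. Ltf, Lcn2 and Pigr were high in both genotypes, Slpi, Defb1 and Reg3g were far lower, Camp and Ngp were near 0, and edgeR called none different. A call needed a fold change of at least 2 and a Benjamini-Hochberg adjusted p of at most 0.1 in the edgeR quasi-likelihood test over 18174 genes, which 180 genes (0.99%) reached, 0.924% with a higher and 0.066% with a lower level in Thra1PV/+. Of the members, 8 passed the filter on low counts and 0 of these were called. At an unadjusted p under 0.05 there was 1, Reg3g, beside 9.77% of all tested genes (5.05% higher and 4.72% lower in Thra1PV/+). DESeq2 called 1 member, again Reg3g, beside 3.58% of the genes it tested (2.57% higher in Thra1PV/+). In 0 of the 8 were the genotypes free of overlap, which 6.04% of tested genes were (3.55% higher in Thra1PV/+). Without the 3 libraries with high stroma markers, a setting chosen after the data were seen, 0 members were called.

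**Figure D1:**
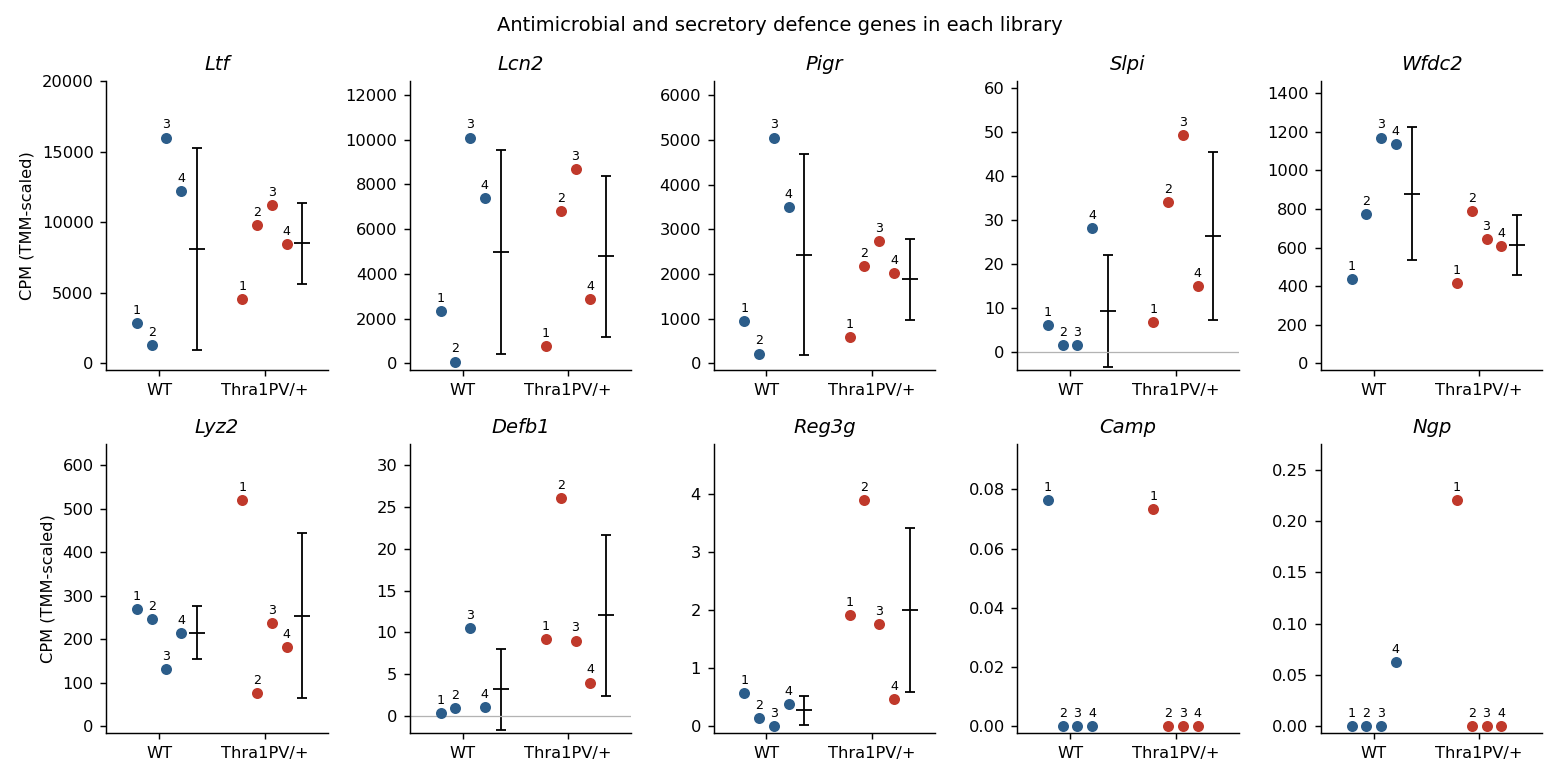
CPM (linear axis, one scale for each gene) of the 10 members in the 4 WT and 4 Thra1PV/+ libraries. Points are libraries with their replicate number, and the bars of the 8 genes tested give the mean and SD (n = 4). The 2 genotypes overlap in every panel, and replicates 1 and 2 of WT and replicate 1 of Thra1PV/+ sit lowest for Ltf, Lcn2 and Pigr.

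Ltf, which encodes the iron-binding lactotransferrin of uterine fluid, was the most abundant member. Its gene spans chr9:111019271-111042767 (GRCm38, plus strand). With a median of 7917 TPM over the 8 libraries it ranked 11 of 52325 genes. It was 4534, 9799.5, 11264 and 8482 CPM in Thra1PV/+ replicates 1 to 4 and 2853, 1289.8, 16021 and 12221 CPM in WT replicates 1 to 4. Both the highest and the lowest libraries were WT, and all 4 Thra1PV/+ libraries lay between them. In WT replicate 3 this 1 gene took 1.35% of all counts (95% Wilson interval 1.34% to 1.35%, counting error only). The genotype difference was a log2 fold change of 0.07 (SE 0.73, adjusted p = 0.99, edgeR). Its 95% interval ran from -1.59 to 1.74, and so took in a change of 2-fold in either direction.

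Lcn2 encodes lipocalin 2, which captures the siderophores that bacteria use to take up iron. The gene lies at chr2:32384633-32388252 (minus strand), and its median of 6524 TPM ranked 14. The 4 Thra1PV/+ libraries held 794, 6795, 8691 and 2894 CPM of Lcn2, and the 4 WT libraries 2362, 85.7, 10095 and 7380.5. WT replicate 2 stood far below the others, and the WT libraries spanned a 118-fold range against 10.95-fold in Thra1PV/+. The SD of log2 CPM within genotypes was 2.48, larger than in 99.5% of the tested genes, whose median SD was 0.45. Between genotypes its log2 fold change was -0.06 (SE 1.13, 95% interval -2.65 to 2.54, adjusted p = 0.99). Its sign changed with the scaling and on the TPM scale, where the log2 difference was 0.93 with a pseudocount of 1, and no direction is given.

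Pigr encodes the receptor that carries polymeric IgA and IgM into the lumen, and is shed there as secretory component. It lies at chr1:130826684-130852249 (plus strand). Its CPM was 600.4, 2182, 2729.8 and 2022 in Thra1PV/+ and 938, 222, 5051 and 3497 in WT. Within each genotype the libraries fell in the same order as for Ltf. The log2 fold change was -0.37 (SE 0.85, 95% interval -2.30 to 1.57, adjusted p = 0.94), and it turned to 0.33 on the log2(TPM + 1) scale.

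The profiles of Ltf and Pigr were the most alike of all member pairs. After each was centred on its own mean log2 CPM over the 8 libraries, they differed by a root mean square of 0.42 log2 units, against 0.92 for Lcn2 and Pigr and 1.20 for Lcn2 and Ltf. There were 0.132 to 0.242 Pigr counts for each Ltf count in Thra1PV/+ and 0.172 to 0.329 in WT. Lcn2 followed them less closely, with 0.175 to 0.772 counts for each Ltf count in Thra1PV/+ and 0.0664 to 0.828 in WT. Together the 3 genes made up 86.2% to 96.0% of the members' counts in 7 libraries and 60.9% in WT replicate 2. All 10 members together took 0.285% of the counts of WT replicate 2 and 2.73% of those of WT replicate 3, the ends of the range. The genes nearest to Lcn2 in profile were Egln3 (difference 0.19), Pla2g2e (0.41) and Rnf186 (0.45), where the median gene differed from Lcn2 by 2.22. Those nearest to Ltf were Serinc2 (0.24), Muc20 (0.24) and Bhlhe40 (0.26), and those nearest to Pigr were Tnfsf13os (0.23), C2cd4b (0.26) and Cfi (0.29), which encodes complement factor I. Of these, Egln3, an oxygen-sensing prolyl hydroxylase, was 6.59 CPM in WT replicate 2 and 698 in WT replicate 3.

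Because simple epithelium markers moved with these genes, their level was also set against the mean log2 CPM of the 11 markers in the same library. Ltf then stood at 3.96 to 4.09 log2 units above the markers in the 4 Thra1PV/+ libraries, although its CPM there had spanned 2.48-fold. In WT it stood at 3.44, 2.09, 4.30 and 4.14. The Thra1PV/+ values lay within the range of WT. Lcn2 kept a wide range on this scale, from 1.57 to 3.72 in Thra1PV/+ and from -1.82 to 3.63 in WT. Pigr ran from 1.17 to 2.05 in Thra1PV/+ and from -0.45 to 2.63 in WT. WT replicate 2 was thus lowest for all 3 genes on both scales, and the part of tissue composition in this was not tested.

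**Figure D2:**
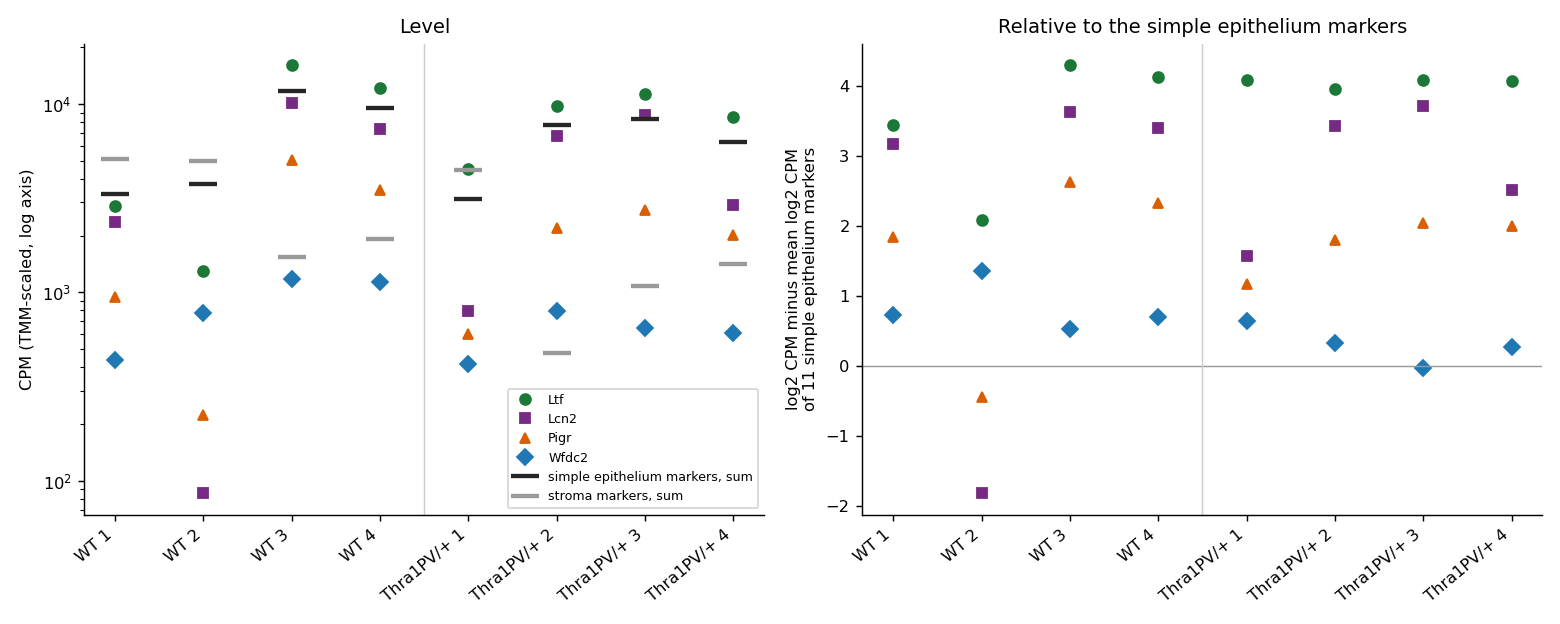
Left, CPM (log axis) of Ltf, Lcn2, Pigr and Wfdc2 in each library, with dashes for the summed CPM of the simple epithelium and stroma markers. Right, log2 CPM of the same genes minus the mean log2 CPM of the 11 simple epithelium markers. Ltf lies at 3.96 to 4.09 in the 4 Thra1PV/+ libraries, and WT replicate 2 is lowest for Ltf, Lcn2 and Pigr but highest for Wfdc2.

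The genes of the estrogen response, of which Ltf is a classical member, were looked at beside it. Of 10 on the list 9 were tested, and 0 were called (1, Oxtr, at an unadjusted p under 0.05, named after its value was seen, and 0 by DESeq2, which gave Oxtr no p). C3, the central complement component and the gene of the list with the highest mean CPM, was 499, 4403, 5417 and 3525 CPM in Thra1PV/+ and 1668, 415, 18372 and 5922 in WT. Like Ltf it was highest in WT replicate 3 and lowest in WT replicate 2. Its log2 fold change was -0.93 (SE 1.07, adjusted p = 0.84). Sprr2f, next in mean CPM, had a log2 fold change of 0.60 (SE 0.81, adjusted p = 0.87, edgeR). It was the 1 tested gene of the list above 0, and 8 were below 0. The median was -0.25, beside -0.05 over all tested genes. The receptor Esr1 went from 198 to 401 CPM in Thra1PV/+ and from 230.2 to 413 in WT, with its highest value in WT replicate 2.

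Wfdc2, a whey acidic protein of ducts and airways, was the steadiest of the abundant members. It lies at chr2:164562413-164568510 (plus strand) and had a median of 1387 TPM. Its CPM was 415, 792, 647 and 608 in Thra1PV/+ and 436, 776, 1170.0 and 1134 in WT. The highest pair of libraries was WT, but the other WT libraries lay among those of Thra1PV/+. The SD within genotypes was 0.54 log2 units, and the log2 fold change of -0.51 (SE 0.33, 95% interval -1.28 to 0.25, adjusted p = 0.68) had the narrowest interval of the 8. Relative to the simple epithelium markers it was 0.64, 0.33, -0.03 and 0.27 in Thra1PV/+ and 0.73, 1.36, 0.52 and 0.71 in WT. Without the 3 libraries with high stroma markers the log2 fold change was -0.72, with an unadjusted p of 0.00665 (edgeR) and an adjusted p of 0.21 (0.21 to 0.92 over all alternatives). In WT replicate 2, the lowest for Ltf, Lcn2 and Pigr, Wfdc2 was above 3 of the 4 Thra1PV/+ libraries. Its nearest profiles were those of Sigirr (0.17), Rhobtb2 (0.17) and Rundc3b (0.18).

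Slpi encodes the secretory leukocyte protease inhibitor, which blocks neutrophil elastase. It lies at chr2:164354070-164389095 (minus strand), where the annotation also places Mir7678 on the same strand. It was far less abundant than Wfdc2, with a median of 23.3 TPM. In Thra1PV/+ it was 6.83, 34.0, 49.3 and 15.01 CPM, and in WT 6.09, 1.55, 1.61 and 28.1 CPM. All 4 Thra1PV/+ libraries exceeded 3 of the WT libraries, while WT replicate 4 lay within their range. Slpi had a log2 fold change of 1.49 (SE 1.01, 95% interval -0.82 to 3.80, adjusted p = 0.69). Leaving out WT replicate 4 raised it to 3.09, still with no call. The profiles nearest to Slpi were those of Tnfrsf11b (0.44), Cxcr2 (0.52) and Il1r2 (0.53), and the last 2 are neutrophil genes. Slpi was also set against the neutrophil markers in each library, a list that itself holds Cxcr2 and Il1r2. The genotype means of Slpi then differed by 0.06 log2 units, with ranges of 0.04 to 2.48 in Thra1PV/+ and 0.74 to 2.23 in WT. With S100a8 and S100a9 left out of the markers the difference was 0.38. Against the full list it was -1.45 for Ltf and -1.30 for Lcn2, Thra1PV/+ minus WT, with the genotypes overlapping for both. These differences were not tested.

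Lyz2 encodes the lysozyme of macrophages and granulocytes, and lies at chr10:117277331-117282321 (minus strand). Next to it is Lyz1, a near copy, and reads could be assigned to either. The first 120 coding bases of both, from GENCODE transcripts, are given with capitals where they differ, since a read is informative only where it covers such a base.
Lyz1: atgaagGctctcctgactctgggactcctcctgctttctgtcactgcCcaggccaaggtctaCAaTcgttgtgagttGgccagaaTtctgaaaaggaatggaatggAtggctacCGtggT
Lyz2: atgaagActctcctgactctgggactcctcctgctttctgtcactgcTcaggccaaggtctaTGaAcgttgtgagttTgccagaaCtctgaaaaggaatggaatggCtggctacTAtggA
They differed at 11 of these bases and at 22 of the 444 coding bases. Of the 31-base words of the Lyz2 transcript, 32.8% also occurred in Lyz1. The estimated counts gave 0.00601 to 0.0965 of Lyz1 for each count of Lyz2, so Lyz2 held most of the sum in all 8 libraries. Lyz2 was 519, 76.5, 237 and 183 CPM in Thra1PV/+ and 268, 247, 131 and 214 in WT. The highest and the lowest library were both Thra1PV/+, with a range of 6.79-fold against 2.05-fold in WT. Between genotypes the log2 fold change was 0.24 (SE 0.52, 95% interval -0.94 to 1.42, adjusted p = 0.93), also 0.24 with both lysozyme counts summed, and -0.34 without Thra1PV/+ replicate 1.

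Lyz2 was highest in Thra1PV/+ replicate 1, where Ltf, Lcn2 and Pigr were lowest of that genotype. C1qa, a complement subunit made by tissue macrophages, was 195, 48.4, 137 and 121 CPM in Thra1PV/+ and 158, 79.5, 80.2 and 125 in WT. C1qa fell in the order of Lyz2 in Thra1PV/+ but not in WT, as did Csf1r and Adgre1. Cd14 and Cd68 did not follow that order in Thra1PV/+. Cd14, the macrophage marker of highest mean CPM, was 166, 575, 327 and 218 CPM in Thra1PV/+ and 110, 114, 360 and 321 in WT. Cd68 was 60.2, 64.1, 75.3 and 51.0 CPM in Thra1PV/+ and 34.9, 18.5, 128 and 66.4 in WT. Against the mean of the macrophage markers Lyz2 stood at 1.58 to 2.85 log2 units in Thra1PV/+ and 1.79 to 3.23 in WT. The nearest profiles were those of Rnf144a (0.16), Slco2b1 (0.20) and Cd93 (0.20).

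Defb1 encodes a beta-defensin that many epithelia make without stimulus, and lies at chr8:21776599-21795185 (plus strand). It was 9.16, 26.1, 9.03 and 4.01 CPM in Thra1PV/+ and 0.363, 1.01, 10.5 and 1.07 in WT. All 4 Thra1PV/+ libraries lay above 3 WT libraries, but WT replicate 3 lay above 3 Thra1PV/+ libraries. Defb1 had a log2 fold change of 1.90 (SE 1.06, 95% interval -0.52 to 4.32, adjusted p = 0.63), and of 3.91 without WT replicate 3, again with no call. Scel (0.70), Tmprss11g (0.71) and Nlrp10 (0.73), the nearest profiles, were each further from Defb1 than the nearest genes of the other members were from theirs. Scel encodes sciellin, a protein of the cornified envelope of stratified epithelia. WT replicate 3, the WT library with the most Defb1, also had the highest WT sum of squamous markers (67.1 CPM), though far below the 2933 of the lowest Thra1PV/+ library. The part of squamous epithelium in the Defb1 level was not tested.

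Reg3g, a lectin that kills Gram-positive bacteria and is best known from the intestine, lies at chr6:78466269-78468872 (minus strand). It was the member with the largest fold change and among the least abundant. It had 104, 192, 86 and 27 counts in Thra1PV/+ and 30, 8, 0 and 18 in WT, that is 1.91, 3.90, 1.76 and 0.473 CPM against 0.572, 0.144, 0 and 0.377. Of the Thra1PV/+ libraries 3 lay above all WT libraries, and replicate 4 lay below WT replicate 1. The log2 fold change was 2.87 (SE 1.05, 95% interval 0.47 to 5.26), with an unadjusted p of 0.0245 and an adjusted p of 0.41 in the edgeR quasi-likelihood test. DESeq2 gave 2.90 with an adjusted p of 0.0648 and so called it (0.0648 to 0.75 over all alternatives). The call thus rested on the tool. Its relatives gave no such counts: Reg3a had 0 in all libraries and Reg3b stayed at or below 0.0763 CPM. Reg3g was nearest in profile to Gm49339 (0.45), Duox2 (0.58) and Mirt1 (0.61).

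**Figure D3:**
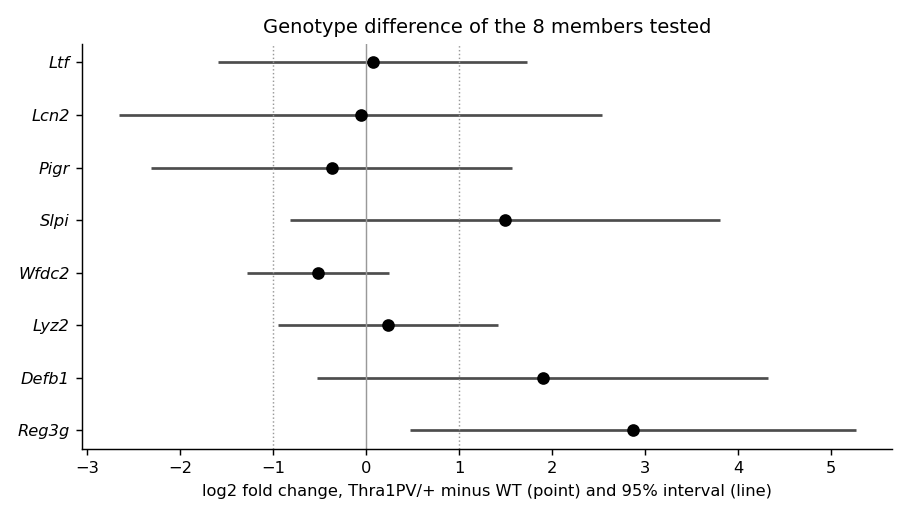
Log2 fold change of Thra1PV/+ minus WT (points) with its 95% interval (lines) for the 8 members tested with edgeR. Dotted lines mark a 2-fold change in either direction. The interval excludes 0 for Reg3g alone, at 0.47 to 5.26 before adjustment, and all 8 intervals reach past a dotted line.

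Camp and Ngp were near 0 in all libraries. Camp encodes cathelicidin and lies at chr9:109847379-109849617 (minus strand), and Ngp, the neutrophilic granule protein, lies at chr9:110419747-110423012 (plus strand). Camp had 4 counts in Thra1PV/+ replicate 1, 4 in WT replicate 1 and 0 in the other 6 libraries. Ngp had 12 counts in Thra1PV/+ replicate 1, 3 in WT replicate 4 and 0 elsewhere. A count of 0 allows up to 0.0502 to 0.0605 CPM at these depths, covering counting error only. Neither gene passed the filter. An exact two-sided permutation test on log2 CPM gave p = 1.0 for Ngp (n = 4 against 4), where the smallest p possible is 0.0286. No p is given for Camp, which had 4 counts in 1 library of each genotype.

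Among the 4 granule genes shown by sequence above, 2 were thus among the most abundant transcripts of the tissue and 2 were hardly detected. Of the other genes of maturing neutrophils, some were also at or near 0. Elane and Ctsg had no counts in any library, Mpo did not exceed 0.147 CPM and Fcnb appeared in 1 library. Prtn3, another granule protease, was present in all 8 libraries, with 70 to 217 counts or 1.26 to 4.14 CPM, and its log2 fold change was -0.34 (SE 0.42, adjusted p = 0.86). Other genes of the neutrophil marker list were present, and whether neutrophils were their source in these bulk samples was not tested. Squamous epithelium markers also differed between genotypes, at 2933 to 4613 CPM in Thra1PV/+ and 1.58 to 67.1 in WT. The part of that epithelium in the levels below was not tested. S100a8 was 49.6, 188, 55.8 and 14.1 CPM in Thra1PV/+ and 6.60, 0.776, 1.23 and 30.2 in WT, and S100a9 was 79.8, 412, 165 and 21.9 against 10.8, 0.993, 3.06 and 56.1. In WT replicate 3, where Ltf and Lcn2 were highest, only WT replicate 2 had less S100a8 and S100a9. Ly6g went the other way and was highest in WT replicate 3, at 2.13 CPM. It was 0.0763 to 0.831 CPM in the other WT libraries and 0.560 to 0.992 in Thra1PV/+ (log2 fold change -0.24, SE 0.78, adjusted p = 0.96, edgeR). Mmp9 also had a negative log2 fold change (-0.36, SE 0.80, adjusted p = 0.93, edgeR). Of 19 neutrophil markers 13 were tested and 0 were called, although 8 had an unadjusted p under 0.05, all with higher means in Thra1PV/+ (5.05% of all tested genes). DESeq2 called 4 of the list, S100a9 among them, beside 3.58% of the genes it tested. Of the 13 tested, 10 had log2 fold changes above 0 and 3 below, with a median of 2.08, beside -0.05 over all tested genes. The list summed to 99.5 to 833 CPM in Thra1PV/+ and 20.8 to 175 in WT.

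**Figure D4:**
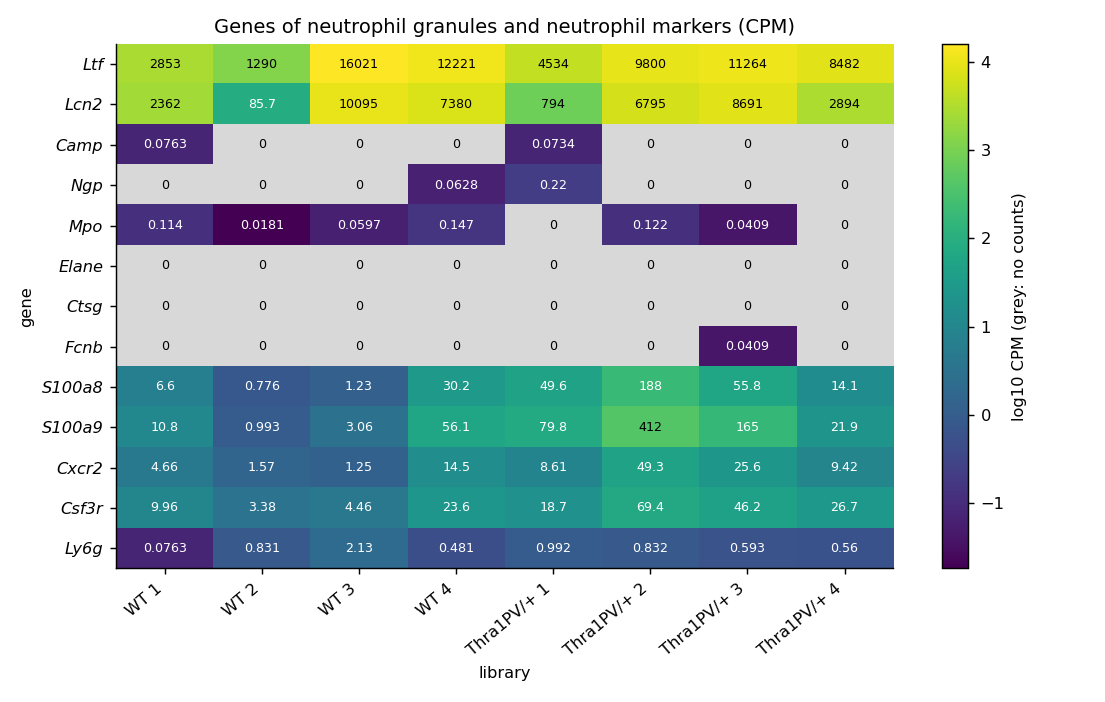
CPM (numbers) and log10 CPM (colour, grey for no counts) of neutrophil granule genes and neutrophil markers in each library. Ltf and Lcn2 reach 16021 and 10095 CPM in WT replicate 3, where S100a8 is 1.23 and Ly6g is at its highest, 2.13. Camp, Ngp, Elane and Ctsg are at or near 0 in all 8 libraries.

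Pigr has a cargo, and the genes of polymeric immunoglobulin were given beside it. Igha, the heavy chain of IgA, was 426, 135, 972 and 683 CPM in Thra1PV/+ and 21.7, 196, 9.09 and 38.2 in WT. Jchain, which joins the polymer, was 113, 37.3, 248 and 143 against 5.59, 47.8, 2.63 and 9.10. For both genes the ranges overlapped through WT replicate 2 and Thra1PV/+ replicate 2 alone. The log2 fold changes were 3.07 (SE 1.01, adjusted p = 0.36) for Igha and 3.06 (SE 0.97, adjusted p = 0.34) for Jchain. Of 6 listed genes 5 were tested, 0 were called by edgeR and 4 had an unadjusted p under 0.05 (9.77% of all tested genes). DESeq2 called 3, Igha and Jchain among them, beside 3.58% of the genes it tested. The third named gene, Ighm, had a log2 fold change of -0.63 (SE 0.51, adjusted p = 0.76). Pigr itself was highest in WT replicate 3, the library with the least Igha.

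A further 40 defence proteins of epithelia and leukocytes, of which 39 were in the table and 26 passed the filter, were set beside the members. Of these 1 was called, Duox1, a dual oxidase that makes hydrogen peroxide at mucosal surfaces. It rose from 0.420, 0.0722, 0.259 and 0.0419 CPM in WT to 3.98, 7.28, 4.70 and 4.05 in Thra1PV/+, with no overlap. Its log2 fold change was 4.64 (SE 0.72, adjusted p = 0.0314). It lost the call without Thra1PV/+ replicate 3 (adjusted p = 0.11, with 4.42e-12 to 0.12 over all alternatives). In all, 9 of the 26 had an unadjusted p under 0.05 (9.77% of all tested genes), 8 of them with higher means in Thra1PV/+ (5.05%). DESeq2 called 7 of the list, beside 3.58% of the genes it tested. Among the 9 were, named after their values were seen, Duox2, a nearest profile of Reg3g (log2 fold change 3.93, SE 1.002, adjusted p = 0.21), and Pglyrp4, a peptidoglycan recognition protein (5.76, SE 1.27, adjusted p = 0.13), both called by DESeq2.

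The 3 genes of that list with the highest mean CPM differed in their pattern over the libraries. Sftpd, the lung and mucosal collectin, was 80.0, 321, 462 and 300.1 CPM in Thra1PV/+ and 234.5, 80.7, 1155 and 582 in WT, highest in WT replicate 3 like Ltf (log2 fold change -0.82, SE 0.78, adjusted p = 0.80). Pglyrp1 was 102, 545, 809 and 359 CPM in Thra1PV/+ and 164, 17.5, 336 and 416 in WT, lowest in WT replicate 2 like Ltf but highest in Thra1PV/+ replicate 3 (log2 fold change 0.96, SE 0.87, adjusted p = 0.79). Rnase4, a ribonuclease, was 319, 215, 452 and 405 CPM in Thra1PV/+ and 415, 153, 140.0 and 445 in WT. It was lowest in WT replicate 3, where Ltf was highest (log2 fold change 0.27, SE 0.43, adjusted p = 0.90). The median log2 fold change of the 26 was 0.48, beside -0.05 over all tested genes.

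**Figure D5:**
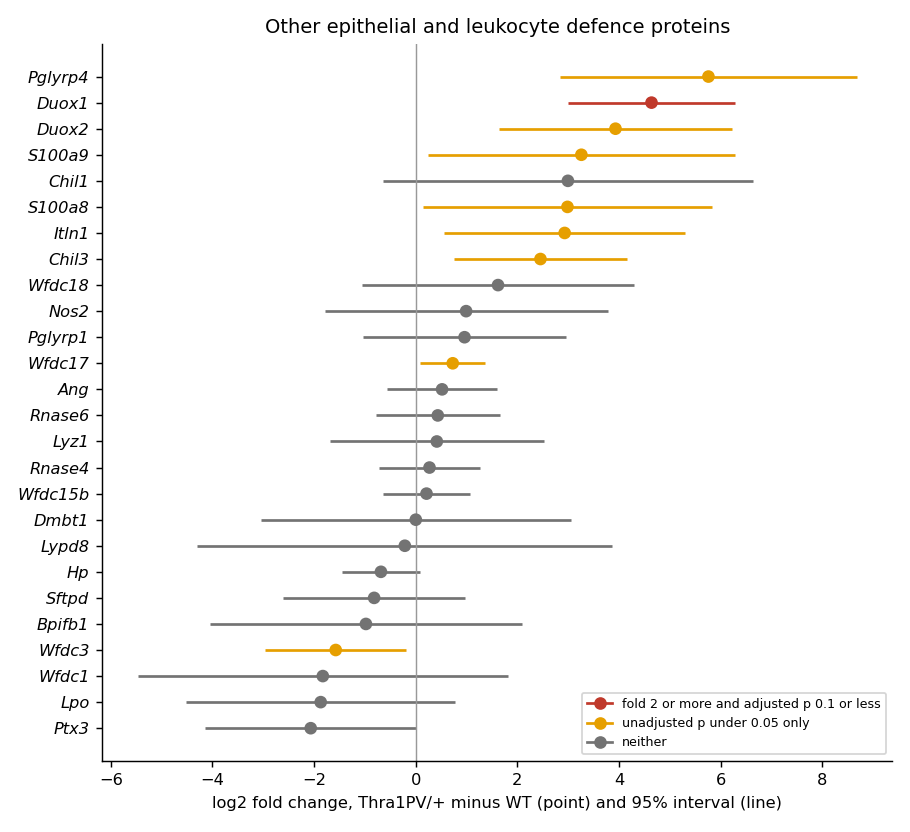
Log2 fold change of Thra1PV/+ minus WT (points) with its 95% interval (lines) for the 26 other defence proteins tested with edgeR, sorted. Duox1 (4.64) is the only call, and 8 more genes have an unadjusted p under 0.05, of which Wfdc3 alone is lower in Thra1PV/+.

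Factors that act on these genes and receptors, some of which bind their proteins, were counted last. Of 27 on the list 23 were tested and 0 were called, and 1 had an unadjusted p under 0.05 (9.77% of all tested genes). This was Il1f9, an epithelial cytokine of the interleukin 1 family that was named after its value was seen (log2 fold change 3.49, SE 1.18, adjusted p = 0.37), which DESeq2 called. The highest mean CPM was that of Elf3, an epithelial transcription factor, at 358, 1115, 935 and 752 CPM in Thra1PV/+ and 289.9, 153, 1378 and 689.6 in WT. Its lowest and highest libraries were those of Ltf, WT replicates 2 and 3. It had a log2 fold change of 0.33 (SE 0.65, adjusted p = 0.92). Stat3 was 122 to 284 CPM in Thra1PV/+ and 154 to 337 in WT (log2 fold change -0.17, SE 0.32, adjusted p = 0.91).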

How the data were processed

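RNA from laser-captured endometrium was sequenced with a stranded paired-end mRNA kit by the authors, trimmed with Trimmomatic and quantified with Salmon on mm10; versions and annotation are not given in the sources used here. The deposited table of estimated counts (52325 genes) was rounded and tested. The deposited TPM have nearly the same sorted values in each library, the form of quantile normalization, and served for levels between genes and as an alternative. They have 1 column that matches no sample and was not used. The authors' estimated counts do not keep the uncertainty of reads shared by near copies.

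Genes were kept by filterByExpr (minimum count 10), scaled by TMM and fitted by genotype with edgeR 4.0.16 in R 4.3.3 (glmQLFit, glmQLFTest). Log2 CPM used a prior count of 2. Standard errors were derived from each fold change and its F value. DESeq2 1.42.0 and limma 3.58.1 on log2(TPM + 1) and log2(TPM + 0.1) were alternatives, beside other filters, scalings and thresholds, each library left out, and a replicate block. The fit was tested on simulated data. Depth was 48791602 to 59818887 counts, and intervals of shares cover counting error only.

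Members and lists were chosen with earlier results of these data known. All 10 members are named. By rule, the names from every other list come from its called genes (up to 6, by adjusted p) and, where fewer than 3 were called, from the 3 of highest mean CPM, though not all of these are printed, besides 4 defining markers per cell type and the 3 nearest profiles of each member (mean CPM of 1 or more); other names were chosen after their values were seen. Interleukin 1 family genes were matched under their older symbols, and 1 listed gene was not matched. Positions and Lyz1 and Lyz2 sequences are from GENCODE M21, whose identifier versions matched those of all 10 members, and promoters from RefSeq.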

Additional observations from a re-analysis of the deposited data

Results flagged for a closer look

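Camp and Ngp had, in both genotypes, 1 library far from the other 3 by Dixon's ratio, the gap of the extreme library divided by the range of its group. The ratio of log2 CPM was 1.0 for Camp in Thra1PV/+ replicate 1, with 4 counts, and in WT replicate 1, with 4 counts. It was also 1.0 for Ngp in Thra1PV/+ replicate 1, with 12 counts, and in WT replicate 4, with 3 counts. In each case the other 3 libraries of the genotype had 0 counts, so the ratio rests on 12 counts or fewer. These were 4 of 20 groups examined, where chance gives about 1 in 20. No library of the other 8 members exceeded the 95% critical value for 4 libraries.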

How the results depend on the processing

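The intervals of all 8 members tested reached past a 2-fold change, so a change of that size may have been missed. Depth limits Camp and Ngp, at 12 counts or fewer, and Reg3g, at 192 or fewer. The 180 genes called became 791 with DESeq2, 81 with at least 10 counts in every library, 119 at an adjusted p of 0.05, 1775 at an unadjusted p of 0.05 with no fold threshold and 82 with the replicate block. Leaving out 1 library gave 81 (without Thra1PV/+ replicate 3) to 167 calls, 116 without Thra1PV/+ replicate 2 and 114 without WT replicate 4. The members called were 1 with DESeq2 and 1 at the unadjusted p, Reg3g in both, and 0 under the other settings. Same-numbered libraries did not deviate together (correlations of 0.27, -0.44, 0.34 and -0.16 for numbers 1 to 4), so the numbers were taken as names and the block, under which 0 members were called, was not used for pairing; Duox1 lost its call under it (adjusted p = 0.12, edgeR).

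Signs of the log2 fold changes turned for 4 members, none of them called. Lcn2 was 0.0693 with library sizes alone and 0.93 on both TPM scales (0.93 with the pseudocount of 0.1), and -0.51 to 0.57 with 1 library left out. Ltf was -0.24 to 0.67 with 1 library left out and -0.48 without the 3 libraries of high stroma markers. Lyz2 was -0.34 to 0.54 and -0.0259 under these settings. Pigr was 0.33 on both TPM scales, 0.0282 with the block and -0.71 to 0.30 with 1 library left out. Slpi, Defb1 and Reg3g stayed positive (0.99 to 3.09, 1.19 to 3.91 and 1.58 to 3.56) and Wfdc2 negative (-0.72 to -0.32) under all settings that gave a value. Reg3g had none with at least 10 counts in every library. The causes were not tested.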

Other observations

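Lrp2, which encodes megalin, an endocytic receptor that takes up lipocalin 2 among many ligands, was 199 CPM in WT replicate 2 and 0 to 4.55 CPM in the other 7 libraries; it was chosen after its values were seen. WT replicate 2 was also the library with the least Lcn2, at 85.7 CPM. The 8 markers of uterine glands, of which 4 passed the filter, summed to 559 CPM there, against 152 to 326 elsewhere. Most of that sum was Sox17, the marker of the highest mean CPM, at 355 CPM against 77.5 to 145. The log2 fold change of Lrp2 between genotypes was -5.34 (SE 2.50, adjusted p = 0.56, edgeR quasi-likelihood test), with the genotypes overlapping.

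Slc22a17, proposed as a receptor of lipocalin 2 as well, was 14.4 to 24.5 CPM over all 8 libraries, with a log2 fold change of -0.17 (SE 0.21, adjusted p = 0.86). The Lcn2 level ranged over 85.7 to 10095 CPM in the same libraries.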
